A study of Homo sapiens with 8 samples.

Results

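The 10 genes described here are the inhibitor of differentiation genes ID1, ID2, ID3 and ID4, the inhibitory SMAD genes SMAD6 and SMAD7, the TGF-beta ligand genes TGFB1 and TGFB2, and the TGF-beta receptor genes TGFBR1 and TGFBR2. They were chosen by symbol from the 61806 genes of the deposited table, and each symbol matched 1 row. mRNA was measured in 8 libraries of wildtype N/TERT-1 cells (N/TERT cells), an immortalized line of human epidermal keratinocytes grown without serum in a medium that holds epidermal growth factor and bovine pituitary extract. In 4 libraries the cells had received ethanol, the solvent, and in the other 4 they had received O/A, which is oligomycin, an inhibitor of the mitochondrial ATP synthase, together with antimycin A, an inhibitor of complex III of the respiratory chain. The mRNA-seq treatment lasted 4 hours, and O/A stands for 10 µM oligomycin with 4 µM antimycin A elsewhere in the study, whereas the sample labels give neither time nor dose. All 8 libraries come from 1 line, and the 4 replicates of each condition are described as independent experiments.

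TGF-beta ligands bind a receptor pair, in which TGFBR2 activates TGFBR1, and TGFBR1 then phosphorylates SMAD2 and SMAD3. Bone morphogenetic proteins (BMPs) work through related receptors and SMAD1, SMAD5 and SMAD9, and both branches share SMAD4. The inhibitory SMADs and the ID genes are classical immediate targets of these signals. SMAD6 and SMAD7 feed back on the receptors, and ID proteins bind E proteins, a class of basic helix-loop-helix transcription factors, and keep them off DNA. In keratinocytes TGF-beta is known to restrain proliferation, and ID proteins are linked to the proliferating, undifferentiated state.

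The library totals ran from 17210404 to 20999927 counts. Of the 7 basal keratinocyte markers, all were expressed, with a summed level of 3190 to 3440 FPKM with ethanol and 2940 to 3090 FPKM after O/A, while the 4 endothelial markers together stayed at or below 0.08 FPKM in every library. Of the basal markers, the keratin gene KRT5 fell (log2(FC) -0.30) and the desmosomal cadherin gene DSG3 rose (0.99), the other 5 were not called, and the median log2(FC) of the 7 was 0.14. FPKM, as deposited, scales the count by exonic length and library total. Comparisons of FPKM between genes therefore depend on the annotated exonic lengths. The edgeR quasi-likelihood test was run on the 14893 genes that reached 10 counts in 4 or more libraries. A call required an adjusted p-value up to 0.05 together with a log2(FC), O/A over ethanol, beyond 0.25 in either direction. In bulk RNA, fewer cells expressing a gene and less RNA per cell cannot be told apart.

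ID1 rose, and ID3 and TGFB2 fell, under O/A. These were 3 of the 8 genes that could be tested (37.5%), against 34.7% of all genes tested, so the share called was near the background. One was upregulated, where the background is 15.8%, and 2 were downregulated, where it is 18.9%. ID4 and SMAD6 had too few reads to test. The other 5 tested genes were not called. An adjusted p-value up to 0.05 alone was reached by 6 of the 8, where the background is 53.7%. The median log2(FC) of the 8 tested genes was 0.03, beside 0.00 over all genes tested.

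The sequences just upstream of the 3 called genes are shown to describe the motif letters they hold. Any link between these letters and the changes was not tested. The sequences are RefSeq windows of GRCh38.p14, taken 5′ to 3′ on the strand of the gene and ended at the base before the deposited gene start. Capitals mark matches, on either strand, to the TATA box (TATAAA), the CCAAT box (CCAAT), a core of the cAMP response element (TGACGT), and SMAD-binding letters (GTCTAGAC, CAGACA and GGCGCC). E-boxes (CANNTG), which E proteins bind but so do other factors, were searched as well and are not in capitals.
ID1, chr20:31605039-31605282, plus strand: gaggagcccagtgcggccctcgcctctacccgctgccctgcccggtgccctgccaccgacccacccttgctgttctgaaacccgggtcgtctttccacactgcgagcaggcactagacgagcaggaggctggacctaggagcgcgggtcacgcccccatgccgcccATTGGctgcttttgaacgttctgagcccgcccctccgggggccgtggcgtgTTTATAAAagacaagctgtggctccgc
ID3, chr1:23559502-23559751, minus strand: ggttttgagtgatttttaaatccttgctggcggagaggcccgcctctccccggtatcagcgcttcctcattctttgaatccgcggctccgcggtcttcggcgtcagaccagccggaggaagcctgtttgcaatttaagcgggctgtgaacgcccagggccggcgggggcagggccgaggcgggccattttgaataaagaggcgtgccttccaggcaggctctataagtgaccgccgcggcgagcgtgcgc
TGFB2, chr1:218345086-218345335, plus strand: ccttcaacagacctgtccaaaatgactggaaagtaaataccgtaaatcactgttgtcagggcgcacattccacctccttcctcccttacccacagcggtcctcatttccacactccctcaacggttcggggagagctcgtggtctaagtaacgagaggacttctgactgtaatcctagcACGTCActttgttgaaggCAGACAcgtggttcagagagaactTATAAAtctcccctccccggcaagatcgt

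The ID1 window held a TATA box, which starts 25 bases before the deposited start and overlaps its own match on the other strand, and an inverted CCAAT box 78 bases before it. The ID3 window, with 62.0% G and C against 66.4% for ID1, held no exact match to any of the 7 motifs. Near its end it held tataag, which differs from the TATA box letters TATAAA only in the last base. Such near matches were not searched. In the TGFB2 window, with 50.4% G and C, a TATA box lay 29 bases before the start, a cAMP response element core at 71 bases, and the letters CAGACA at 53 bases, which run into an E-box at 49 bases. Among 35116 RefSeq windows of 250 upstream bases, 10.7% held TATAAA, 32.0% CCAAT, 7.10% TGACGT, 13.6% CAGACA, 16.4% GGCGCC and 61.8% an E-box. The palindrome GTCTAGAC was in 0.182% of them and, of these 10 genes, in the window of SMAD6, 12 bases before the start. All 10 genes had at least 1 window. A match describes letters only.

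Among the ID genes, ID1 and ID3 moved in opposite directions. ID1 lies on chromosome 20 of GRCh38 from 31605283 to 31606515 (ENSG00000125968). It had 9.49, 9.83, 8.62 and 9.27 FPKM in ethanol replicates 1 to 4 and 17.88, 17.37, 16.13 and 14.92 FPKM in O/A replicates 1 to 4. Every O/A library was above every ethanol library, and the lowest O/A value was well clear of the highest ethanol value. The log2(FC) of ID1 was 0.88 (standard error 0.074, 95% interval 0.73 to 1.03, edgeR adjusted p = 9.54e-15), a 1.84-fold higher level. Of all genes tested, 3.42% had a log2(FC) at least as high.

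ID3, on chromosome 1 from 23557926 to 23559501 (ENSG00000117318), encodes another ID protein that binds E proteins. It had 24.8, 22.71, 25.71 and 25.4 FPKM with ethanol and 12.17, 11.62, 11.73 and 10.86 FPKM after O/A. All 4 O/A libraries lay far below all 4 ethanol libraries. The log2(FC) of ID3 was -1.04 (standard error 0.0579, 95% interval -1.16 to -0.93, edgeR adjusted p = 1.56e-21), a level 2.06-fold lower, and 2.47% of all genes tested had a log2(FC) as low. For ID1, ID3 and TGFB2 alike, an exact permutation test of CPM scaled by TMM, edgeR's library scaling (two-sided, n = 4 libraries per condition) gave p = 0.0286, the smallest p that this design allows. TGFBR1 and TGFBR2, which were not called, gave the same p in this test. Of the 8 tested genes, 5 had conditions that did not overlap, against 47.6% of all genes tested.

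**Figure D1:**
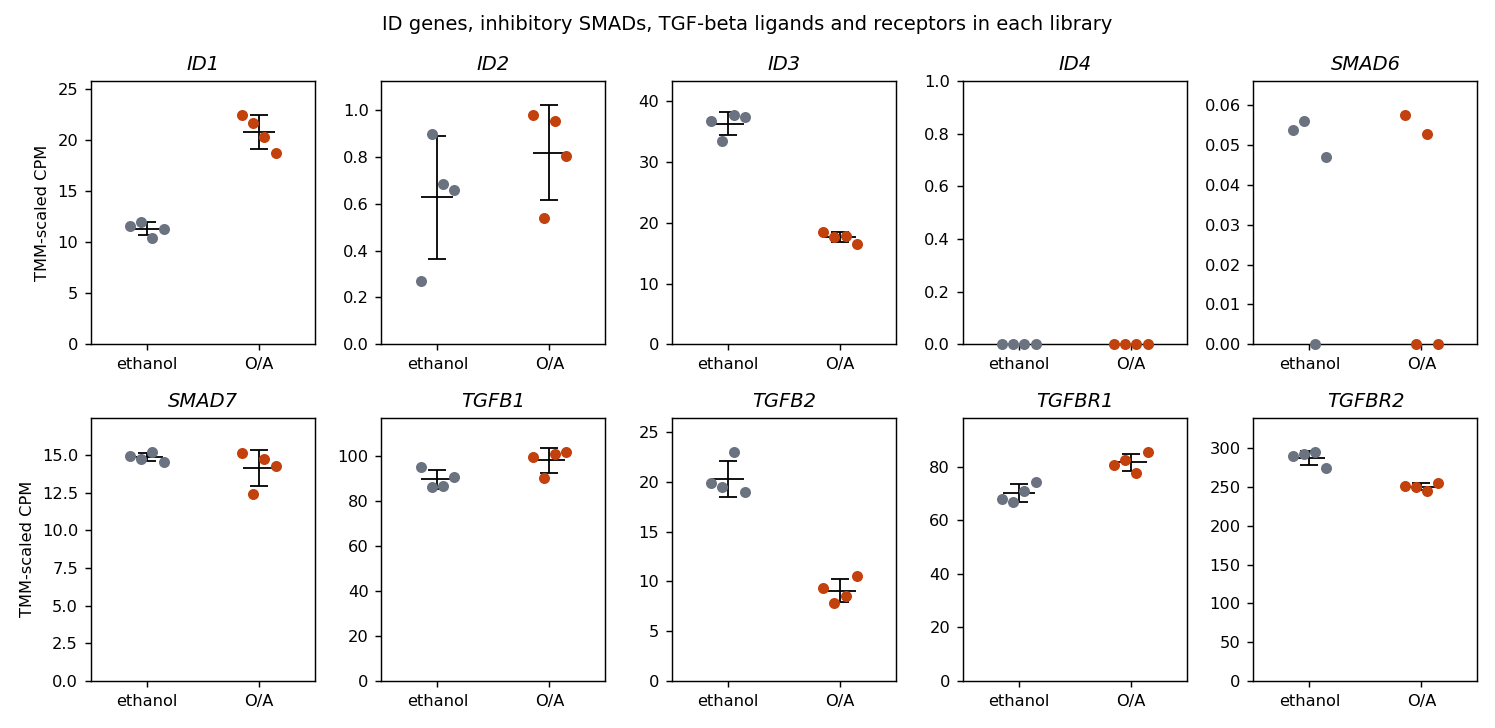
TMM-scaled CPM (vertical axes, each from 0) of the 10 genes in the 4 ethanol and 4 O/A libraries. Points are libraries, and the dash and bars are the mean and SD of each condition, left out for ID4 and SMAD6. ID1 stands higher after O/A at 20.8 against 11.3, and ID3 stands lower at 17.6 against 36.4, as does TGFB2 at 9.07 against 20.3.

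The summed ID mRNA was lower after O/A, and the order of its 2 main parts was reversed. The 4 ID genes together had 34.2 ± 0.87 FPKM with ethanol and 28.5 ± 1.85 FPKM after O/A (SD, n = 4 libraries). ID3 made up 68.9% to 74.2% of that sum with ethanol but 39.8% to 41.5% after O/A, while ID1 went from 24.9% to 29.8% of it to between 57.0% and 59.4%. The ratio of ID3 to ID1, both in FPKM, was 2.31 to 2.98 with ethanol and 0.669 to 0.728 after O/A. So ID3 was the more abundant of the pair in every ethanol library and ID1 in every O/A library.

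**Figure D2:**
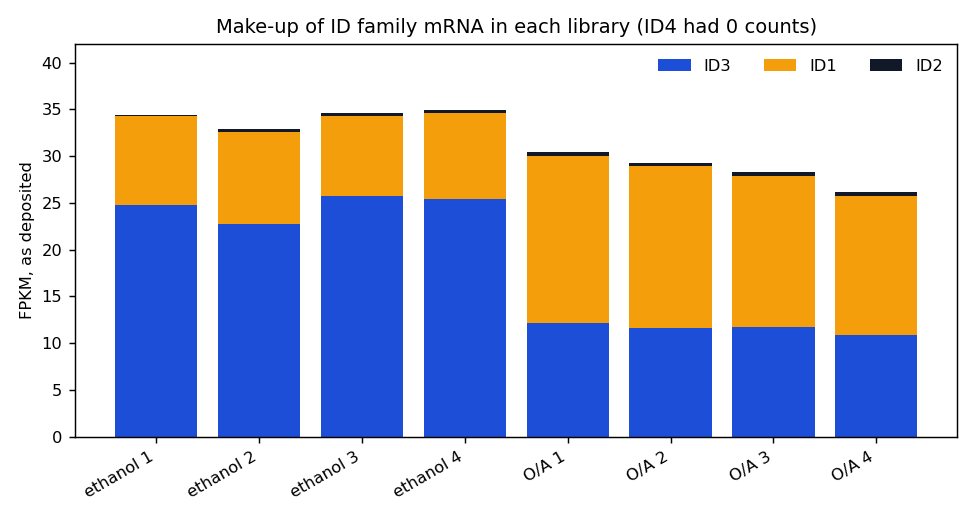
Deposited FPKM (vertical axis, from 0) of ID3, ID1 and ID2, stacked for each of the 8 libraries. The blue ID3 part shrinks from 24.7 FPKM on average with ethanol to 11.6 after O/A, and the yellow ID1 part grows from 9.3 to 16.6, while ID2 is barely visible.

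ID2 had few reads, and ID4 was not detected. ID2, on chromosome 2, had 5, 16, 12 and 14 counts in the ethanol libraries and 17, 10, 18 and 14 after O/A, which made up 0.349% to 1.49% of the summed ID level. Both conditions overlapped, and the log2(FC) was 0.38 with a 95% interval from -0.26 to 1.03 (edgeR adjusted p = 0.329). At this depth a change of ID2 within that interval was not detectable. ID4, on chromosome 6, had 0 counts in all 8 libraries, which allows up to 0.174 CPM (counts scaled to the library total) in the shallowest of them (3 counts, counting error only).

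Of the partners of the ID proteins, none of the 3 E protein genes was called with all 8 libraries, and without O/A replicate 4 TCF4 was downregulated (log2(FC) -0.28, beside -0.17 with all libraries). TCF12 had 10.4 ± 0.444 FPKM with ethanol and 11.6 ± 0.374 after O/A (SD, n = 4), and its log2(FC) of 0.20 passed the adjusted p-value but not the fold threshold. The summed FPKM of the 4 ID genes was 1.6 to 1.71 times that of TCF3, TCF4 and TCF12 with ethanol and 1.27 to 1.4 times after O/A, without overlap. The size of this ratio depends on the exonic lengths, such as 29166 bases for TCF4 and 1233 for ID1.

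Neither inhibitory SMAD gene was called. SMAD7, on chromosome 18, blocks TGFBR1 and brings ubiquitin ligases to it. It had 3.83, 3.79, 3.93 and 3.74 FPKM with ethanol and 3.77, 3.11, 3.67 and 3.56 FPKM after O/A. The conditions overlapped, with O/A replicate 2 lowest, and the log2(FC) was -0.07 (95% interval -0.22 to 0.08, edgeR adjusted p = 0.446). SMAD6, which acts mainly on BMP signals and lies on chromosome 15, had at most 1 count in any library and was not tested.

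Of the ligands, TGFB2 fell and TGFB1 was not called. TGFB2, on chromosome 1 from 218345336 to 218444619 (ENSG00000092969), had 3.32, 3.26, 3.88 and 3.18 FPKM with ethanol and 1.52, 1.27, 1.39 and 1.71 FPKM after O/A. The highest O/A library was below the lowest ethanol library. Its log2(FC) was -1.16 (standard error 0.083, 95% interval -1.33 to -0.998, edgeR adjusted p = 7.04e-17), a level 2.24-fold lower and the largest absolute change of the 8 tested genes. TGFB2-OT1, inside TGFB2 on the same strand, had 0 counts, and TGFB2-AS1, which overlaps its start on the other strand, had at most 7.

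TGFB1, on chromosome 19, was the more abundant ligand, with 29.36, 26.78, 27.08 and 28.08 FPKM with ethanol and 29.94, 27.21, 30.27 and 30.59 FPKM after O/A. The conditions overlapped, and a log2(FC) of 0.13 (95% interval 0.05 to 0.20, edgeR adjusted p = 0.00358) lay within the fold threshold. In FPKM, TGFB1 was 6.98 to 8.84 times as abundant as TGFB2 with ethanol and 17.9 to 21.8 times after O/A. TGFB1 overlaps 5 other genes in the deposited coordinates, among them HNRNPUL1 on the other strand with 4648 to 6475 counts per library, and whether reads were counted by strand is not given in the sources used here, so reads on shared bases cannot be assigned.

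Neither receptor was called, although each separated the conditions. TGFBR1, on chromosome 9, had 8.57, 8.5, 9.07 and 9.42 FPKM with ethanol and 9.92, 10.18, 9.55 and 10.5 FPKM after O/A. Every O/A library was higher, by little, and the log2(FC) was 0.22 (95% interval 0.14 to 0.30, edgeR adjusted p = 3.75e-06). Without ethanol replicate 4 it was 0.26, past the threshold. TGFBR2, on chromosome 3, had 42.71, 43.32, 43.98 and 40.67 FPKM with ethanol and 36.15, 36.02, 35.06 and 36.6 FPKM after O/A. Every O/A library was lower, and the log2(FC) was -0.20 (95% interval -0.26 to -0.15, edgeR adjusted p = 1.31e-08), or -0.29, past the threshold, under quantile normalization. TGFBR2 exceeded TGFBR1 in FPKM in every library, by 4.32 to 5.10 times with ethanol and 3.49 to 3.67 times after O/A.

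In ethanol the order of the levels, in FPKM, was TGFBR2 at 42.7 ± 1.43, TGFB1 at 27.8 ± 1.16, ID3 at 24.7 ± 1.35, ID1 at 9.3 ± 0.51, TGFBR1 at 8.89 ± 0.435, SMAD7 at 3.82 ± 0.0806, TGFB2 at 3.41 ± 0.319 and ID2 at 0.288 ± 0.121 (SD, n = 4). The libraries of ID1 and TGFBR1 overlapped in range, as did those of TGFB2 and SMAD7. In O/A the order was TGFBR2 at 36.0 ± 0.648, TGFB1 at 29.5 ± 1.55, ID1 at 16.6 ± 1.33, ID3 at 11.6 ± 0.545, TGFBR1 at 9.55 to 10.5 in its 4 libraries, SMAD7 at 3.53 ± 0.291, TGFB2 at 1.47 ± 0.188 and ID2 at 0.362 ± 0.0873. ID1 passed ID3, and no neighbors overlapped after O/A.

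The genes whose pattern was most like that of TGFB2 over the 8 libraries, by the root mean square difference of log2 CPM relative to the ethanol mean, were ENSG00000275993 at 0.0911, KIFC1, a mitotic kinesin, at 0.0918 and GEMIN6, a subunit of the SMN complex, at 0.0958, among 11580 genes compared. Their log2(FC) were -1.18, -1.23 and -1.17, beside -1.16 for TGFB2. The measure thus largely picks genes with a change of like size.

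Beyond these 10, the lists hold 76 other genes of the pathway, of which 64 were tested, 11 were upregulated and 16 downregulated. That is 42.2% called, with a median log2(FC) of -0.04, beside 34.7% and 0.00 over all genes tested. ACVR1C, ACVRL1, ATOH8, BAMBI, BMP4, BMP7, CHRD, INHBB, LRRC32, SMAD9 and SOSTDC1 were among those with too few counts to test. Among the receptor and common SMADs, SMAD1, which carries BMP signals, was the 1 of 5 called, at a log2(FC) of -0.46. SMAD4 was called as well without ethanol replicate 1 and SMAD2 without ethanol replicate 4, both upregulated by 0.25, where all libraries gave 0.23 and 0.22.

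Of 5 other ligands tested, TGFB3 fell, as TGFB2 did, with a log2(FC) of -1.09, but it had only 16 to 30 counts with ethanol and 8 to 12 after O/A. BMP6 (1.32) and BMP2 (0.37) rose, from 0.193 and 1.11 FPKM. The call of BMP2 was lost without ethanol replicate 4 (0.28, edgeR adjusted p = 0.0814) and without O/A replicate 2 (0.33, adjusted p = 0.0512). Of 9 other receptors, ACVR1 (0.40) and ACVR2A (0.37), a type I and a type II receptor, rose, and the BMP receptor gene BMPR1A (-0.46) and the co-receptor genes ENG (-0.48) and TGFBR3 (-0.78) fell. The shares called were 60.0% of these ligands and 55.6% of these receptors, against 34.7% of all genes tested.

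The antagonists outside the cell were led by FST, whose product follistatin traps activins, with 125 ± 3.78 FPKM with ethanol and 50.7 ± 2.14 after O/A (SD, n = 4) and a log2(FC) of -1.25. NOG, which encodes the BMP antagonist noggin, fell as well (-1.20) at 1.55 FPKM with ethanol, and the other 4 of 6 tested were not called. Inside the cell the related corepressor genes TGIF1 and TGIF2 were called in opposite directions. TGIF1 rose from 6.25 ± 0.393 to 13.9 ± 0.325 FPKM and TGIF2 fell from 4.97 ± 0.18 to 2.02 ± 0.22 FPKM (SD, n = 4), with log2(FC) of 1.2 and -1.25. SKIL (0.32) and SKI (-0.29), another pair of related corepressors, and NEDD4L (0.62), a ubiquitin ligase, were the other 3 called of 12. The shares called were 33.3% of the antagonists outside the cell and 41.7% of those inside, against 34.7% of all genes tested.

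Of 9 genes for storage and activation of latent TGF-beta, THBS1 and LTBP2 were called, both downregulated (22.2%, against 34.7% of all genes tested). ITGAV, an integrin subunit gene, was higher in every O/A library, but its log2(FC) of 0.23 lay within the fold threshold. THBS1, whose product thrombospondin-1 can activate latent TGF-beta, went from 774 ± 28.4 to 305 ± 12.2 FPKM (SD, n = 4), a log2(FC) of -1.30, and LTBP2, a latent TGF-beta binding protein gene, had -0.51. Of the 15 TGF-beta target genes, 4 were upregulated, 4 downregulated and 7 not called (53.3% called, against 34.7% of all genes tested). Scaled by library total only, 3 were upregulated and 5 downregulated. Among them CCN2 (-0.99) and TAGLN (-0.72), which encode connective tissue growth factor and transgelin, fell, and the cell cycle inhibitor gene CDKN2B (1.19) and the AP-1 gene JUNB (0.63) rose. Of 6 BMP target genes tested, which include ID1, ID2 and ID3, HEY1 rose (1.02, 7 to 21 counts with ethanol) and MSX2 fell (-0.53) beside ID1 and ID3. With ID1 and ID3 included, 66.7% of these 6 were called, against 34.7% of all genes tested. The calls of ID1 and ID3 are thus counted here a second time.

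**Figure D3:**
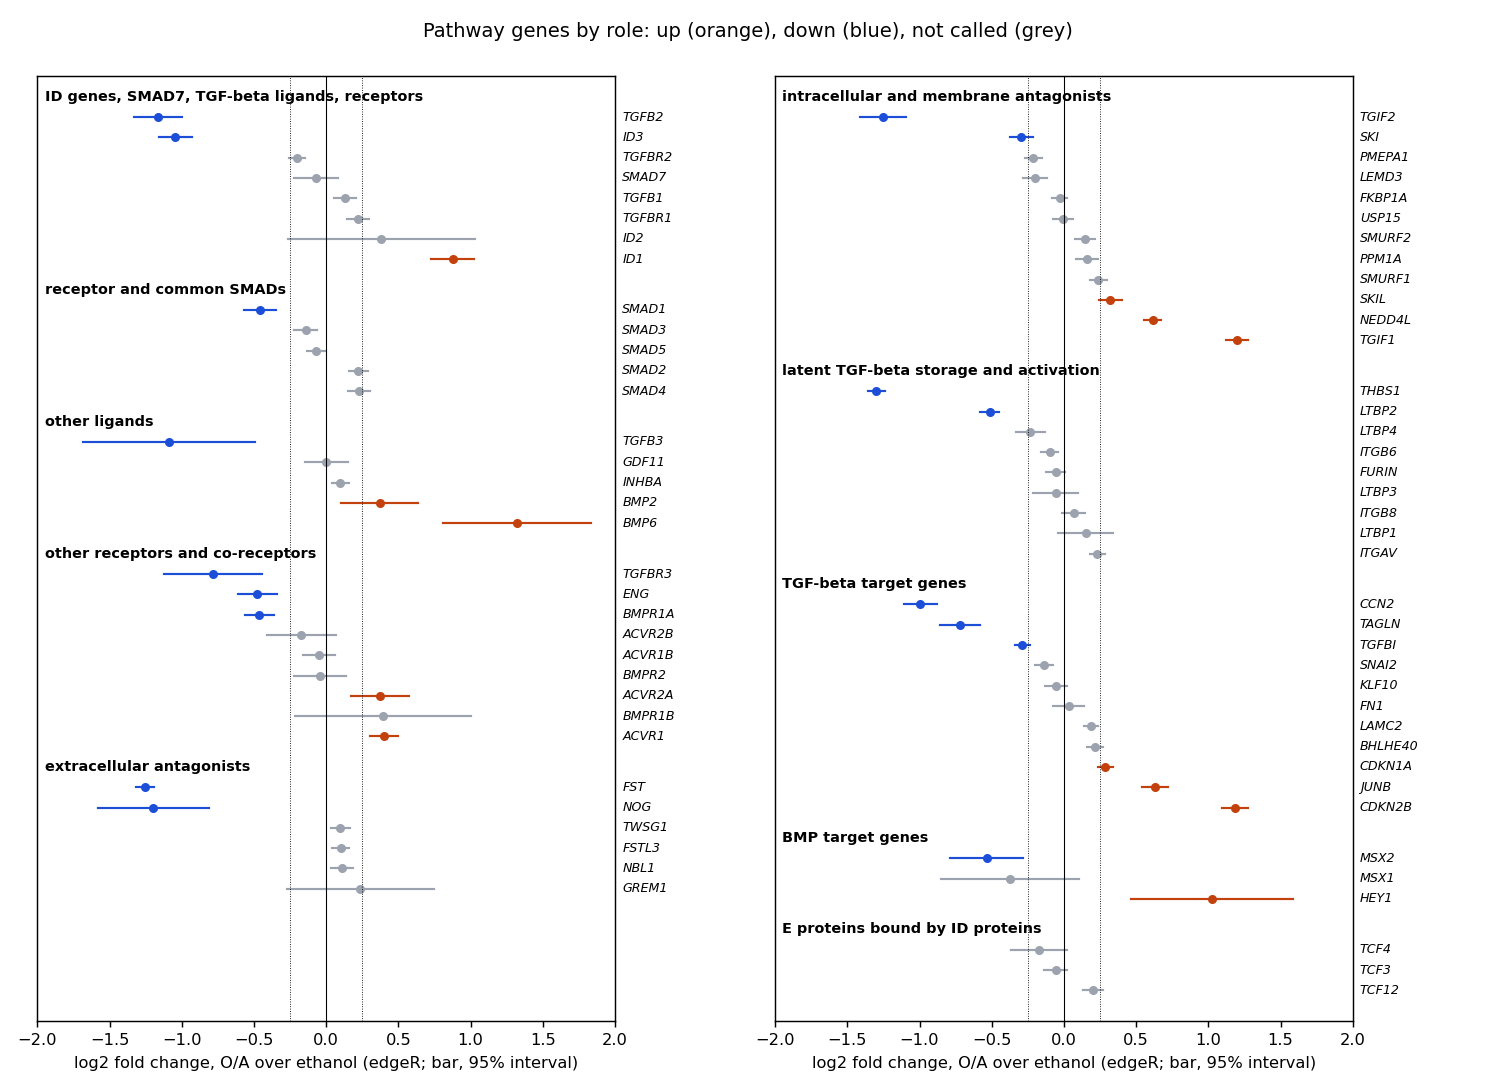
log2(FC) of O/A over ethanol (horizontal axis) with its 95% interval for the 8 tested genes and 63 of the other pathway genes tested, grouped by role, each gene drawn once under its first list. Dotted lines mark the fold threshold of 0.25, and among the ligands, receptors, intracellular antagonists and target genes orange (upregulated) and blue (downregulated) genes stand side by side, as do TGIF1 at 1.2 and TGIF2 at -1.25.

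**Figure D4:**
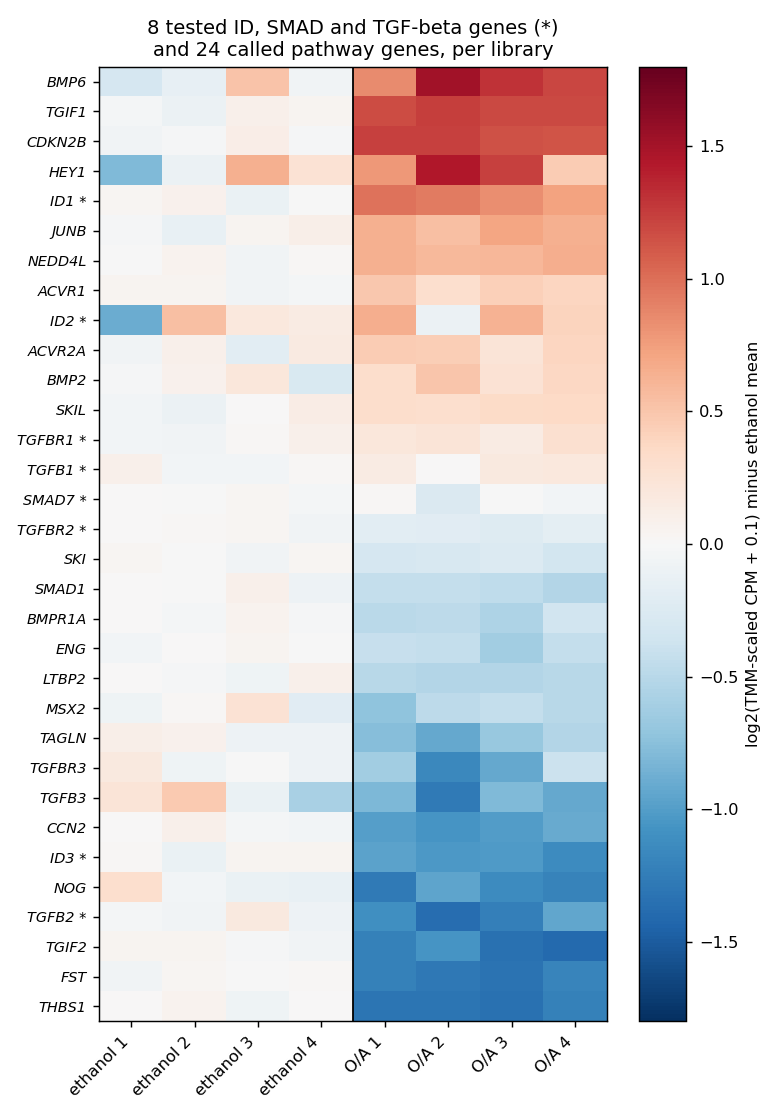
log2(TMM-scaled CPM + 0.1) minus the ethanol mean (color) in each library for the 8 tested genes, marked by asterisks, and 24 called pathway genes, ordered by their mean after O/A. The 4 O/A columns resemble each other for ID1, ID3 and TGFB2, whereas ID2 varies among libraries of the same condition.

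Differentiation markers were called in both directions. Of 4 tested markers of differentiated keratinocytes, KRT10 (log2(FC) 0.47) and SPINK5 (0.62) rose and IVL (-0.31) fell, and KRT1 and LORICRIN had 0 counts in every library. The summed level of these 7 markers was 21.4 to 23.7 FPKM with ethanol and 22.8 to 24.6 after O/A. The 6 fibroblast markers summed to 2.40 to 2.94 FPKM with ethanol and 2.44 to 2.68 after O/A, the 5 melanocyte markers to 1.35 to 1.81 and 1.25 to 1.71, with MLANA and TYR at 0, and the 4 leukocyte markers to 0.40 to 0.59 and 0.65 to 0.89, where CD68 rose (0.56). Their part in the changes of ID1, ID3 and TGFB2 was not tested.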

How the data were processed

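mRNA-seq of 8 libraries was grouped by the sample labels. The authors used HISAT2 2.0.1 for alignment of the read pairs (GRCh38.p13), counted reads per Ensembl gene with HTSeq 0.6.1, and deposited raw counts, which are not normalized, and FPKM, each within 0.005 of the count divided by exonic size and library total. A deposited table of the authors' DESeq2 comparison (fold changes, p-values) was not used. Genes that reached 10 counts in 4 or more libraries entered edgeR 4.0.16 (R 4.3.3), scaled by TMM, in a quasi-likelihood fit with the robust option. P-values were adjusted by Benjamini-Hochberg across these genes. The standard error is the absolute log2(FC) divided by the square root of the F statistic. limma 3.58.1 and DESeq2 1.42.0 gave alternatives.

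The genes and pathway lists were chosen with earlier results of these data known, and the lists were written from general knowledge. Named are all 10 genes and, per list, the called genes up to 6 by absolute log2(FC) and those not tested, except items not reported here; the markers KRT5, DSG3, KRT10, SPINK5, IVL and CD68 and the genes ITGAV, TCF4, TCF12, SMAD2 and SMAD4 were named after their values were seen. On simulated data, with 14893 genes, edgeR called 93 of 100 genes changed by 1 and 76 of 100 changed by 0.5 (log2), and 8 of 14693 unchanged genes. No library was a repeat of another: within a condition the chi-square divided by its degrees of freedom was 1.76 to 5.74, above counting noise. Totals of 17210404 to 20999927 counts leave genes with few reads, such as ID2, imprecise.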

Additional observations from a re-analysis of the deposited data

Results flagged for a closer look

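Among 68 sets of 4 libraries (1 gene, 1 condition), 2 held a single library set apart from its neighbors, and about 3.4 would do so by chance. For ENG, the gene of the TGF-beta co-receptor endoglin, this was O/A replicate 3 with 13.3 TMM-scaled CPM, below the range of 15.2 to 15.3 of its 3 neighbors. For SMAD6 it was ethanol replicate 3 with 0, where its 3 neighbors had 0.047 to 0.0561 TMM-scaled CPM, a difference of 1 count.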

How the results depend on the processing

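ID3 and TGFB2 kept their direction and call under every alternative run, with log2(FC) from -1.09 to -1.01 and from -1.24 to -0.84. ID1 lay between 0.77 and 0.94 and lost its call only where an absolute log2(FC) above 1 was required (0.88). Under that threshold 0 of the 10 genes were upregulated, as were 4 other pathway genes (5 downregulated) and 382 of all genes (415 downregulated). Without a fold threshold TGFB1 (0.13), TGFBR1 (0.22) and TGFBR2 (-0.20) passed, which made 3 of the 10 genes upregulated, 24 other pathway genes and 3868 of all genes. On log2(FPKM + 1), 7 other pathway genes and 1514 of all genes were upregulated. The numbers were 10 and 1945 on log2(FPKM + 0.1), and 10 and 1969 when scaled by library total only. TGFB3, TGFBR3, HEY1, ACVR2A and BMP2, all at low levels, which a pseudocount shrinks, were within the threshold on log2(FPKM + 1). TGFBR2 was called under quantile normalization (-0.29), and the cause was not tested. With each library left out in turn, 1 to 2 of the 10 genes were upregulated and 2 downregulated, 10 to 12 other pathway genes were upregulated and 16 to 17 downregulated, and 2259 to 2435 and 2636 to 2760 of all genes. ID1 lay between 0.85 and 0.93, ID2 between 0.14 and 0.60, ID3 between -1.08 and -1.01, SMAD7 between -0.10 and -0.0029, TGFB1 between 0.11 and 0.18, TGFB2 between -1.24 and -1.09, TGFBR1 between 0.20 and 0.26 (called without ethanol replicate 4), and TGFBR2 between -0.22 and -0.18. No value of the 10 genes or the named pathway genes changed sign. Same-numbered libraries showed almost no shared deviation from their condition means (correlations -0.0226 to 0.0675). These values cannot show whether the experiments were paired. A fit that took replicate numbers as a block gave 2354 upregulated and 2806 downregulated genes, with ID1 at 0.88 and no call among the 10 genes changed. Scaling moved the median log2(FC) of all genes to between -0.046 and 0.007. The alternative of protein-coding genes used GENCODE types and was chosen after seeing the data, because the deposited table holds no gene types. The few counts of ID2 limit its precision, and for ID4 and SMAD6 too little depth and no expression cannot be told apart.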
